A study of Drosophila melanogaster with 10 samples.

Results

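LAD-free stretches are the parts of a chromosome arm that lie between neighbouring lamina-associated domains (LADs). The stretches described here were chosen from the Lam domains of late Drosophila melanogaster embryos. Lam domains separated by at most 900 bp were joined, and every stretch of over 30 kb between neighbouring joined LADs on the large autosomal arms (2L, 2R, 3L and 3R) was taken. This gave 394 of the 3672 stretches on these arms, and of 4724 on all arms with X and chromosome 4 included. Since the rule used the Lam calls, the number, length and position of the stretches are a description. The Elys domains within them took no part in the choice, although both calls rest on the same Dam control.

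The nuclear lamina is a meshwork of Lamins under the inner nuclear membrane, and DNA touching it mostly carries silent genes, whereas regions between LADs are richer in active genes. Elys is a nucleoporin that faces chromatin at the nuclear pore and seeds pore assembly on chromatin after mitosis in several animals. It can also bind chromatin inside the nucleus, away from the pores. An Elys domain in a LAD-free stretch does not tell at which of these sites the contact took place.

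The contacts were mapped by DamID, in which Dam, a bacterial adenine methylase, is tethered to the protein under study and marks the DNA that this protein comes near. Embryos aged 16 to 18 h carried Dam-Elys, Dam-LaminDm0 (here Dam-Lam) or Dam alone, with 2 replicates of each. All were offspring of nos-Cre females and males with a pUAST-attB transgene at one site of chromosome 2, in which Cre removes a loxP-flanked stop cassette between a basal hsp70 promoter and the Dam reading frame. Each sample was a pool of whole embryos, amplified with fewer PCR cycles for Dam-Lam than for Dam and Dam-Elys, and a domain averages over many cell types. The replicates had been merged before domains were called in bins of 300 bp, and the files give a start and an end without score or depth. Hence no value below has a replicate error, and no test between groups was possible. S2 RNA-seq libraries of the same series are listed per gene without positions and were not used. Coordinates are those of the dm3/R5 genome. Neither a genome nor an annotation of that build was used here, so genes and sequences in the stretches are not given.

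The 394 stretches summed to 25.6 Mb, which is 26.5% of the 96.5 Mb between the first and the last domain of the arms and 56.6% of the length between LADs. Arm 2L held 107 stretches (6.86 Mb), 2R held 92 (6.07 Mb), 3L held 95 (5.89 Mb) and 3R held 100 (6.76 Mb). They took up 29.9% of 2L, 28.8% of 2R, 24.0% of 3L and 24.2% of 3R. The median length was 52.2 kb with quartiles of 39.3 and 75.8 kb, and the median by arm ranged between 49.5 kb in 3L and 54.9 kb in 3R. Thus the arms differed little in the usual size of a stretch. A length of over 100 kb was reached by 51 stretches, which held 29.5% of the summed length. Borders of the stretches were identical when gaps between Lam domains were left unfilled, since filling can only close short gaps.

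The longest stretch, chr2L:10194001-10532700, spanned 338.7 kb between LADs of 6.9 and 5.4 kb. Elys domains numbered 33 in it and covered 55.8% of its length, the first one 9.6 kb from the left edge and the last reaching the right edge. The other very long stretch of this arm, chr2L:21389401-21718500, spanned 329.1 kb and held 35 Elys domains. However, these covered only 24.0% of it, and none of them was longer than 8.7 kb. On 3R the longest stretches were chr3R:19676701-19891800 (215.1 kb, 72.0% under Elys) and chr3R:12449401-12659700 (210.3 kb, 76.5%). On 3L they were chr3L:68401-278700 (210.3 kb, 69.5%), which lies next to the first LAD at the telomeric end, and chr3L:15945301-16135200 (189.9 kb, 61.0%). Those of 2R were chr2R:542701-724200 (181.5 kb, 20.5%) and chr2R:7390501-7557000 (166.5 kb, 49.4%). Large size therefore went with high as well as low Elys coverage. At the lower end of the rule, chr2L:10728001-10758300 and chr2L:20775601-20805900 measured 30.3 kb and were covered to 44.6% and 59.4%. Just outside it, chr2R:20058601-20088600 and chr3L:10987201-11017200 measured 30.0 kb and were covered to 24.0% and 25%. More broadly, the 39 members of up to 33 kb were covered to 52.0% and the 54 stretches of over 27 and up to 30 kb to 57.6%, so coverage was not higher just above the threshold than just below it.

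**Figure D1:**
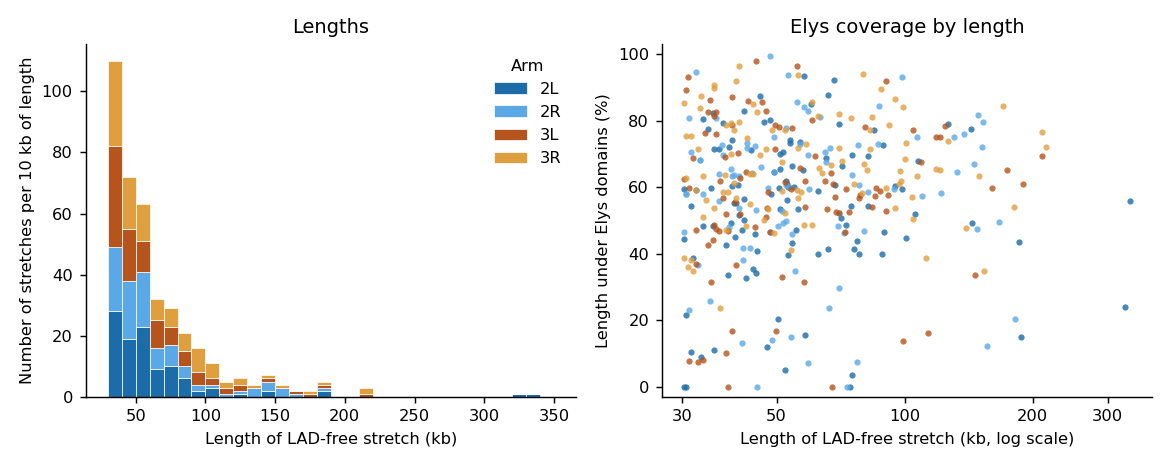
Left, number of LAD-free stretches over 30 kb by length (kb, steps of 10 kb), stacked by arm. Right, share of each stretch under Elys domains (%) against its length (kb, log scale), 1 point per stretch. The counts are highest just above 30 kb, and coverage scatters widely at every length, with no stretch of over 100 kb at 0.

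The stretches were spread along the whole of each arm but not evenly. With each arm split into 5 equal parts, 95, 71, 84, 80 and 64 stretches had their middle in these parts, counted from the centromeric end. In 2L the part at the centromeric end held 34 and the next one 9. Between neighbouring stretches of an arm lay a median of 97.4 kb (quartiles 27.1 and 259 kb) and a median of 5 joined LADs. In 65 of 390 neighbouring pairs (16.7%) a single LAD parted them. Such a LAD had a median length of 4.2 kb, 20 of the 65 were at most 3 kb long, and the longest spanned 69.6 kb. At most 4 stretches followed each other in this way, while the most distant neighbours were 1722 kb and those with most LADs between them 93 LADs apart. LADs next to a stretch had a median length of 6.6 kb (n = 723), against 9.0 kb for the other LADs of these arms (n = 2953). Of the LADs next to a stretch 23.4% reached 15 kb, compared with 33.5% of the other LADs, and 2.07% consisted of 1 bin, compared with 4.13% of the other LADs.

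Of the summed length of the stretches 58.7% lay under Elys domains, compared with 54.0% of the 562 stretches of over 10 and up to 30 kb and 38.2% of the joined LADs on the same arms. The order was the same in 2R, 3L and 3R taken alone. In 2R the values were 57.4%, 53.4% and 41.7%, in 3L they were 58.3%, 52.0% and 38.2%, and in 3R they were 66.3%, 57.0% and 38.5%. In 2L the long stretches (52.6%) lay beside those of 10 to 30 kb (53.1%), and LADs were covered to 34.6%. Among members, coverage was 57.8% for a length of up to 50 kb (n = 182), 59.97% for 50 to 100 kb (n = 161) and 57.6% above 100 kb (n = 51). Across the 394 stretches Spearman's rho of length and coverage was 0.069 and Pearson's r 0.0089, a description over regions that share the same libraries. Among stretches of 10 kb or less it was 32.9% up to 3 kb and 39.2% from 3 to 10 kb, so that coverage differed with length among short stretches and hardly among those of over 30 kb. Although the members make up 26.5% of the arms, they held 34.3% of the Elys domain length of these arms. By number, 21.8% of the domains of these arms (3107 of 14237) touched a member.

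Single stretches varied widely around these values. Coverage ranged between 0 and 99.4%, with a median of 60.3% and quartiles of 48.2 and 73.0%. In 279 stretches (70.8%) it lay between 40 and 80%, in 55 above 80% and in 29 below 20%. The stretch covered most fully was chr2R:3601801-3650100 (48.3 kb, 99.4%). It was taken up by a 49.2-kb Elys domain that began 1.8 kb inside the left LAD and, after a break of 1 bin, by the start of a 31.5-kb domain that ran out through the right edge. In chr3L:760201-804900 (44.7 kb, 98.0%) 3 domains of 23.7, 8.7 and 18.3 kb followed each other, and in chr3R:1027801-1068600 (40.8 kb, 96.3%) 3 domains of 20.4, 20.1 and 18.3 kb. All of these stretches had Elys on both edges. The longest single Elys domain of any stretch, 64.5 kb at chr3R:1086601-1151100, lay in chr3R:1074301-1154100, which it filled but for the outer 12.3 kb on the left and 3.0 kb on the right. Other Elys domains of 0.3 to 18.3 kb took most of that remainder, so that 94.0% of the stretch was covered. At the other end, 7 stretches held no Elys domain at all. They were chr2L:15653101-15727500, chr2L:22491601-22522200, chr2L:22675801-22706100, chr2R:1442401-1487400, chr2R:2229901-2303100, chr3L:19701601-19769100 and chr3L:23304901-23343300, with lengths between 30.3 and 74.4 kb, and none was on 3R.

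Between stretches of high and low coverage, the lengths of Elys domains and gaps differed more than the number of domains. The stretches were put in order of coverage and split into 4 sets of 98 or 99. In the set covered most (73.0 to 99.4%), Elys domains numbered 1.33 per 10 kb with a median length of 3.9 kb and gaps with a median of 0.6 kb. In the set covered least (0 to 48.1%), there were 0.997 domains per 10 kb with a median length of 2.4 kb and gaps with a median of 2.1 kb. Spearman's rho of coverage across the 394 stretches was 0.66 with the length of the longest Elys domain and 0.20 with the number of domains per 10 kb. The first of these is partly built in, because a long domain adds to coverage. The same holds for the domain and gap lengths of the sets, because coverage is made up of them and was used for the sorting. The sets also differed by arm. Of the 99 stretches in the top set, 34 were on 3R, 25 on 3L and 20 each on 2L and 2R, whereas the lowest set of 98 held 37 of 2L, 25 each of 2R and 3L and 11 of 3R. The 15 kb next to the left edge and the 15 kb next to the right edge of a stretch were only loosely related in coverage (Spearman's rho 0.26, n = 394), with a median difference in size of 22 percentage points. Across a single parting LAD, neighbouring stretches gave a rho of 0.40 (n = 65). This value is also partly built in, because in some of these pairs 1 Elys domain runs across the LAD and adds coverage to both stretches.

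Near the centromeric end many stretches of 2L, 2R and 3L were poor in Elys, and those of 3R were not. This limit of 2 Mb was set after the values were seen. The 41 stretches with their middle within 2 Mb of the end were covered to 37.7%, compared with 61.6% of the 353 farther out. In 3L all 6 such stretches lay between 0 and 16.9%, while the 89 others had a median of 59.8%. In 2R the 11 stretches within 2 Mb had a median of 14.1% (range 0 to 81.0%), against 63.7% in the 81 others. In 2L the 14 stretches within 2 Mb had a median of 19.7% (range 0 to 78.9%), against 59.3% in the 93 others. In 3R, by contrast, the 10 stretches within 2 Mb ranged between 34.9 and 96.3%, with a median of 66.8%, against 65.3% in the 90 others. Without any stretch of the centromeric 2 Mb, coverage was therefore 61.6%. Reads had been mapped uniquely, and the share of repeats in these stretches was not analysed here.

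**Figure D2:**
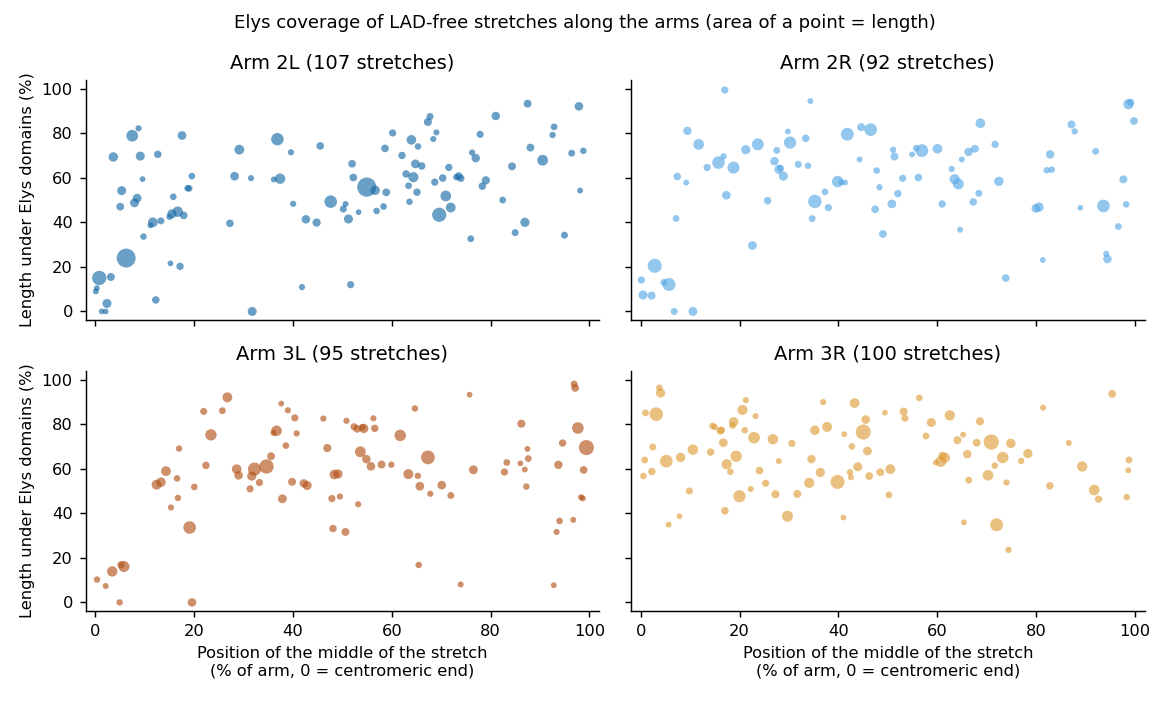
Share of each LAD-free stretch under Elys domains (%) against the position of its middle along the arm (% of the arm, 0 at the centromeric end), 1 panel per arm, with the area of a point set by length. In 2L, 2R and 3L many points near 0 on the position axis sit low, in 3L between 0 and 16.9% within 2 Mb, whereas in 3R they sit between 34.9 and 96.3%.

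Runs without Elys were common inside the stretches. The longest Elys-free run of a stretch had a median of 8.7 kb (quartiles 5.78 and 12.5 kb), and 72 stretches had one of over 15 kb. In 19 stretches, which hold 7.81% of the summed length, it passed 30 kb. The longest run of all spanned 123 kb at chr2L:21416401-21539400 and thus made up a large part of the poorly covered 329.1-kb stretch described above. The next ones were 91.2 kb at chr2R:618001-709200, 74.4 kb at chr2L:15653101-15727500 and 73.2 kb at chr2R:2229901-2303100, the last 2 being whole stretches. These runs carry no Lam domain either. Reads had been mapped uniquely and the domains carry no depth. An Elys-free run or stretch therefore cannot be told here from one with few mapped reads. The named runs lay at 1.43, 0.595, 7.29 and 2.23 Mb from the centromeric end, by the middle of their stretch. With all Elys-free runs of over 15 kb left out, a choice made after seeing the data, the stretches were covered to 64.85%.

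Over all stretches together, Elys coverage was lowest next to the LAD edge and levelled off about 6 kb away, but the 51 longest stretches hardly showed this. Each of the 788 edges of the 394 stretches contributes to every bin up to 15 kb. Coverage was 48.4% from 0 to 1.5 kb, 51.0% from 1.5 to 3 kb, 54.6% from 3 to 6 kb, 60.1% from 6 to 9 kb, 59.4% from 9 to 12 kb and 60.6% from 12 to 15 kb. Beyond, it was 61.8% from 15 to 30 kb, 59.8% from 30 to 50 kb (149 stretches reach this far) and 56.0% above 50 kb (51 stretches). Above 50 kb the arms differed, with 41.8% in 2L, 52.3% in 2R, 65.1% in 3L and 70.3% in 3R. Hence the outermost 1.5 kb had 12.2 percentage points less coverage than the step from 12 to 15 kb. Left and right edges gave nearly the same values, 49.7 and 46.4% in the bin at the edge. All 4 arms showed the same direction. Coverage from 0 to 1.5 kb and from 12 to 15 kb was 39.5 and 54.9% in 2L, 50.2 and 60.5% in 2R, 49.2 and 59.4% in 3L, and 55.6 and 68.1% in 3R. The difference kept its sign under each of the 9 alternatives tried. Changing the filling of Lam gaps could not alter it, since the stretches stay the same. Leaving out Elys-free runs of over 15 kb, which selects on Elys itself, gave 16.0 points. The other alternatives ranged between 10.98 and 13.2 points. The difference varied with the length of the stretch. In the 182 stretches of up to 50 kb, coverage was 49.1% from 0 to 1.5 kb and 60.9% from 12 to 15 kb, and in the 161 of 50 to 100 kb it was 44.8 and 59.9%. In the 51 of over 100 kb, however, it was 57.5% from 0 to 1.5 kb, 55.7% from 1.5 to 3 kb, 57.3% from 6 to 9 kb and 62.0% from 12 to 15 kb, a difference of 4.51 points between the edge and 12 to 15 kb. Whether the length classes differ was not tested. Within single stretches the difference was far from uniform, with more Elys from 12 to 15 kb in 211 stretches (53.6%), less in 131 and an equal share in 52. In 72 stretches the 10 bins next to the edges held no Elys, and in 55 all 10 were covered.

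Stretches of 10 to 30 kb had nearly the same coverage next to the edge, and still shorter ones had less. In stretches of 10 to 30 kb, coverage was 48.9% from 0 to 1.5 kb and 51.7% from 1.5 to 3 kb, close to the values of the members at these distances. In stretches of 3 to 10 kb it was 38.2% and 39.0%. On X the 95 stretches of over 30 kb were covered to 56.0%. They had 50.3% from 0 to 1.5 kb, 57.6% from 3 to 6 kb, 52.8% from 9 to 12 kb, 53.9% from 12 to 15 kb and 58.7% from 30 to 50 kb, so that the lowest step was again next to the edge, but the values did not level off at 6 kb. Whether X differs from the autosomal arms was not tested. Just inside the LADs that flank the members, coverage was 57.7% in the first bin and 49.4% at 1.5 to 1.8 kb from the edge, and it was 40.7% at 5.7 to 6.0 kb, the last over the 403 flanks that are long enough. Therefore coverage was higher in the last bin of a LAD (57.7%) than in the first bin outside it (48.1%).

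**Figure D3:**
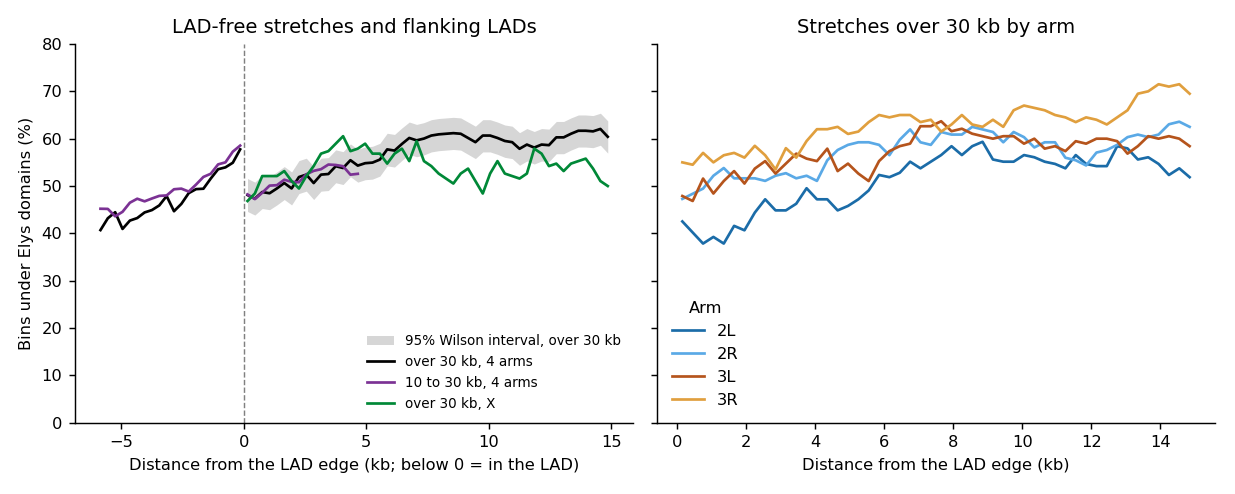
Share of bins under Elys domains (%) by distance from the LAD edge (kb). Left, LAD-free stretches over 30 kb with their flanking LADs (black, with 95% Wilson intervals over edges in grey), stretches of 10 to 30 kb (purple, up to 4.8 kb outside) and X stretches over 30 kb (green). The intervals treat edges as independent, cover their counting alone and are no replicate error. Right, the stretches over 30 kb by arm. Coverage of the stretches over 30 kb is 48.1% in the bin at the edge and 60.1% from 6 to 9 kb, and 2L lies lowest for most of the first 9 kb.

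Elys domains ended at the LAD edge more often than nearby. Elys lay in both the last LAD bin and the first bin outside at 374 of 788 edges (47.5%), and in neither at 328 (41.6%). At 81 edges (10.3%, 95% Wilson interval 8.35 to 12.6%) it lay in the LAD bin only, and at 5 edges (0.635%, 0.271 to 1.48%) in the outside bin only. These intervals cover the counting of edges alone. At the bin borders from 600 bp to 6000 bp outside, an Elys domain ended at 2.41 to 5.20% of the edges and started at 2.92 to 5.84%. Going outwards, more edges thus had an end at the LAD edge itself than at any of these borders, and fewer had a start. The same was seen in stretches of 10 to 30 kb, with an end at 11.3% and a start at 0.979% of 1124 edges. The Lam and Elys profiles had both been divided by the same Dam profile, whose part in shared borders was not tested.

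**Figure D4:**
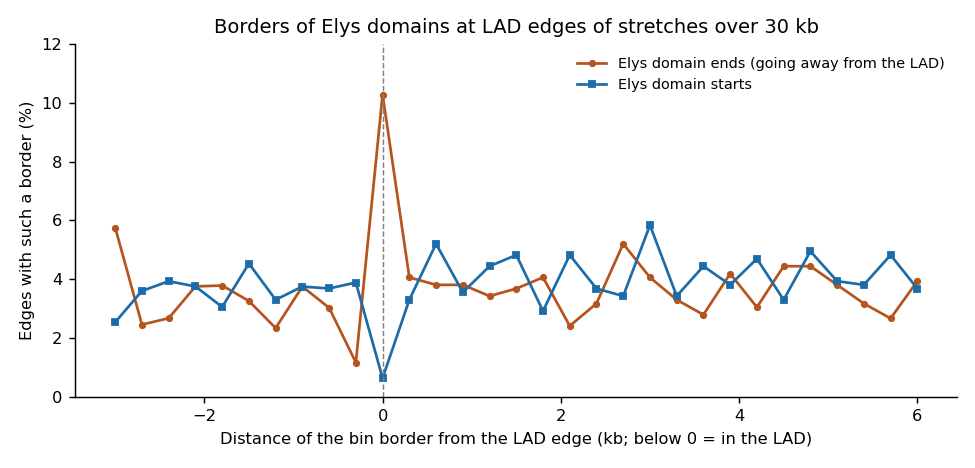
Share of the edges of LAD-free stretches over 30 kb (%) at which an Elys domain ends or starts, going away from the LAD, at each border between bins (kb from the LAD edge, negative in the LAD). At the edge 10.3% of the edges have an end and 0.635% a start, while the borders from 0.6 to 6 kb outside have 2.41 to 5.84% of either.

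Counted from the edge inwards to the stretch, the first bin under Elys lay at a median distance of 0.3 kb (774 edges of the stretches that hold Elys). It lay on the edge at 379 edges (49.0%), within 3 kb at 557 (72.0%) and beyond 9 kb at 60 (7.75%). At 374 of the 379 edges its domain reached in from the LAD. The farthest first domain was 38.4 kb away. The median distance was 1.2 kb in 2L, 0.3 kb in 2R and 3L and 0 in 3R. The length of the LAD behind the edge went with these values. At the 177 edges of LADs of up to 2.7 kb, coverage from 0 to 1.5 kb was 55.4%, and Elys lay on both sides of 59.3% of the edges. At the 177 edges of LADs of 15 kb or more, coverage was 44.7%, with Elys on both sides of 43.5%, and at the 434 edges of LADs between these lengths it was 47.1%, with Elys on both sides of 44.2%. From 12 to 15 kb the coverage was 58.6% behind the short LADs, 57.9% behind the long and 62.6% behind the others. Moreover, 16 Elys domains of 7.5 to 63.6 kb ran from one stretch into the next, across all that parted them. Stretches joined in this way lay 0.3 to 23.7 kb apart, with a median of 3.45 kb. The distances of 12 kb on 2L and 23.7 kb on 3R held more than 1 LAD. The longest of these domains was chr2R:20891401-20955000, which crossed a LAD of 4.5 kb.

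Elys domains wholly inside the stretches numbered 2749, with a median length of 2.7 kb (quartiles 0.9 and 6.0 kb). Of these, 13.7% consisted of a single bin and 25.5% reached 6 kb. In stretches of 10 to 30 kb the median length was 1.8 kb, with 16.3% of 1045 domains reaching 6 kb, and in LADs it was 1.2 kb, with 5.55% of 7081 domains. A short stretch or LAD cannot hold a long domain, so these lengths are not independent of the room available. In X stretches of over 30 kb the median was 2.4 kb, with 18.6% of 933 domains reaching 6 kb. Domains that crossed an edge had a median length of 7.8 kb (n = 374, counted once per stretch). In that number, the 16 domains that touch 2 stretches count in both. For domains wholly inside, the median was 2.4 kb at 0 to 3 kb from the edge (n = 289) and 3.0 kb at 3 to 6 kb (n = 337). It was 3.0 kb at 12 to 15 kb (n = 247) and 2.7 kb at 15 kb and more (n = 1333). The share reaching 6 kb was 28.8% at 3 to 6 kb and 24.8% at 15 kb and more. Counted by domain, length thus showed no steady increase with distance beyond 3 kb. A longer domain has more chance of lying across any given point, which raises the first of these values.

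Counted by bin, where a long domain weighs more, the values ran otherwise. The full length of the Elys domain to which a covered bin belongs, parts in the LAD included, was taken for each bin. Its median was 7.8 kb for bins 0 to 1.5 kb from the edge, 8.1 kb from 3 to 6 kb, 8.7 kb from 6 to 9 kb, 9.9 kb from 12 to 15 kb and 10.8 kb beyond 15 kb. For bins without Elys, the full length of the Elys-free run had a median of 9.3 kb from 0 to 1.5 kb and between 8.1 and 8.4 kb at all other distances. Covered bins deeper in the stretches thus belonged to longer domains, while the domains themselves, counted singly, were not longer there. Gaps between domains, placed by their middle, had a median of 0.3 kb at 0 to 3 kb, 0.9 kb at 3 to 6 kb, 1.5 kb at 12 to 15 kb and 1.2 kb at 15 kb and more. Close to the edge a gap cannot be long, since both of its domains have to touch the stretch. The medians by bin were similar without the centromeric 2 Mb, where those for covered bins were 7.8 kb next to the edge and 11.1 kb beyond 15 kb, and those for free bins lay between 7.2 and 7.8 kb.

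**Figure D5:**
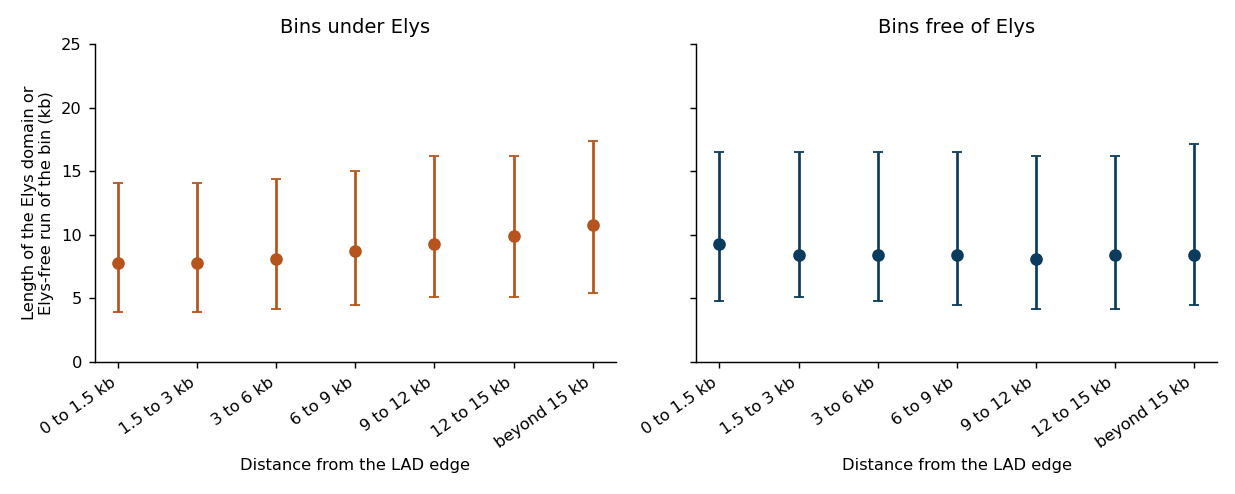
Full length (kb) of the Elys domain of each covered bin (left) and of the Elys-free run of each free bin (right) by distance from the LAD edge in stretches over 30 kb. Points are medians and bars the quartiles. The median for covered bins is 7.8 kb next to the edge and 10.8 kb beyond 15 kb, and that for free bins is 8.1 to 9.3 kb throughout.

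The spacing of Elys domains within a stretch was broad. A stretch held a median of 7 domains (quartiles 4.25 and 10, highest 35). Over all stretches together, the domains touching them numbered 1.22 per 10 kb. The value was 1.55 per 10 kb in stretches of 10 to 30 kb and 1.83 in LADs. A domain crossing an edge counts on both sides, which raises the value more in shorter regions. Wholly inside lay 2749 domains in 25.6 Mb of members and 1045 in 10.1 Mb of the shorter stretches, which are similar densities. In LADs, 7081 of the 9314 touching domains lay wholly inside. From the start of a domain to the start of the next, the median was 5.7 kb (quartiles 2.1 and 11.1 kb), against 4.2 kb in the shorter stretches and 3.0 kb in LADs. Of the 2736 gaps between neighbouring domains of a stretch, 912 (33.3%) were of a single bin and 29.9% exceeded 3 kb, and the median gap was 0.9 kb. In the shorter stretches 40.7% of 1040 gaps were of a single bin and 21.5% exceeded 3 kb, and in LADs 40.4% of 6170 and 27.8%. These counts depend on how the domains are joined. With Elys gaps of up to 900 bp filled, the stretches held 0.682 domains per 10 kb with a median length of 5.4 kb and a median gap of 3.9 kb. Without the domains of a single bin the median gap was 1.8 kb. Coverage was affected far less, since the filled gaps are short.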

How the data were processed

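DamID-seq profiles of Dam-Elys, Dam-Lam and Dam (2 libraries each) were the source of the domains, while the 4 RNA-seq libraries were not used. Per the paper's methods, the authors clipped adapters, mapped reads uniquely to dm3/R5 with bowtie2, counted them with HTSeq-count in 300-bp bins, merged replicates, scaled to RPM, took log2 ratios to Dam and called Lam domains with 2 and Elys domains with 3 HMM states. The deposited positions are in bp, with neither counts nor score, and the depth behind a domain was not analysed here.

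Coordinates are printed from 1. Filling, stretches, coverage by bin, distance from the nearest edge and gaps were computed in Python 3.11.15 with NumPy 2.4.6 and SciPy 1.17.1, checked on simulated domains, and plotted with Matplotlib 3.10.9. Intervals are Wilson intervals at a confidence level of 95%. An arm's span runs from its first to its last domain. A gap lies between Elys domains touching one stretch. Named regions are the 2 longest stretches per arm, the 3 with the highest and the lowest Elys coverage (with ties), the 2 with most Elys domains, those with the longest Elys domain and Elys-free run, and 2 on either side of the threshold. The members and measures were chosen with earlier results of these data known. Alternatives covered the threshold, the smallest domain, filling, the centromeric 2 Mb and long Elys-free runs.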

Additional observations from a re-analysis of the deposited data

How the results depend on the processing

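Of 71 values under 9 alternatives, 61 stayed within the interval of the reported value or, for counts, within 1.5 times. Among the 61 are all values under the alternatives of Lam gap filling, which cannot change a stretch of over 30 kb. The interval was 95% Wilson for shares, with the 394 stretches as its number, and exact binomial for medians. The shares are of length, not of stretches, so their interval served as a yardstick only and measures no spread. Stretches over 50 kb numbered 212 and took 19.2% of the arms. Those over 20 kb numbered 588, just under the limit of 591 that 1.5 times sets, and took 31.5%. The number of stretches thus depends strongly on the threshold. With Elys gaps filled, the median domain length was 5.4 kb, the median gap 3.9 kb and the density 0.682 per 10 kb. With Elys domains of at least 600 bp only, the median length was 3.3 kb and the median gap 1.8 kb. Without Elys-free runs of over 15 kb, coverage was 64.85%, and 67.2% at 12 to 15 kb. This and the choice without the centromeric 2 Mb were made after seeing the data. Leaving out Lam domains of a single bin moved no value out of its interval, and filling Lam gaps of 0 or 1500 bp left every value unchanged. No paired analysis was possible because the replicates were merged before the domains were called, and for the same reason no replicate could be left out.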

Other observations

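Chromosome 4 had the opposite order of coverage. Its 6 LAD-free stretches of over 30 kb (33.6 to 69.3 kb long) were covered by Elys domains to 38.4%, whereas its joined LADs were covered to 61.7%, compared with 58.7% and 38.2% on the large autosomal arms. No test was made.

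Stretches at the ends of the arms lie outside the outermost LAD and are no members. The largest was at the telomeric end of 2L, where the first LAD starts after 223.8 kb and the first Elys domain after 5.1 kb. On 3L the first LAD starts after 61.5 kb.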
